A study of Caenorhabditis elegans with 6 samples.

Results

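The flp and nlp genes encode the FMRFamide-like and the neuropeptide-like precursor proteins of Caenorhabditis elegans. Members were chosen by gene name, as every row of the deposited expression table named flp or nlp with a number, leaving out nlp-24 to nlp-34. This gave 93 of the 16391 rows of the table, of which 31 are flp genes and 62 are nlp genes. RNA-seq was carried out on whole N2 worms, the reference wild type, collected at the L4 larval stage after growth on NGM plates with OP50 bacteria. The 3 libraries of worms cultivated at 25°C were compared with the 3 libraries of worms cultivated at 15°C, and both groups carried no allele or agent beyond the wild-type background. The sample records start cultivation from synchronized L1 larvae, whereas the methods of the study describe worms that hatched and developed at each temperature. The records do not say that the libraries came from separate cultures, so the p-values measure only the spread between these libraries, which may be technical.

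Neuropeptides are made as precursor proteins that are cut by the proprotein convertase EGL-3, trimmed by the carboxypeptidase EGL-21 and, for most FLP peptides, amidated at the C terminus. The mature peptides are packed into dense-core vesicles, are released with the help of the CAPS protein UNC-31, and act largely through G protein-coupled receptors. FLP peptides share an Arg-Phe-amide end, whereas the NLP precursors are a mixed group of other sequences. In C. elegans they shape locomotion, feeding, egg laying, sleep, arousal and fat metabolism, mostly from small sets of neurons and in some cases from the intestine.

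Levels are given as FPKM, fragment numbers divided by transcript length and by library size. This scaling is meant to let genes of different length be set side by side. How far that holds for short genes, such as most members, was not tested. Differences are log2 fold changes of 25°C over 15°C on the log2(FPKM + 0.5) scale from limma, fitted to the 12996 rows with a mean of at least 1 FPKM, with adjusted p-values over all of them. A gene was called when the log2 fold change was beyond 1 and the adjusted p was under 0.01. The number of reads behind each value is unknown, and an exact 0 may mean that the estimate failed rather than that no RNA was present. In bulk RNA, fewer cells of a type and less RNA per cell cannot be told apart.

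Of the 31 flp genes, 28 had no library listed at 0. flp-10 and flp-23 each had 1 library at 0, and flp-21 had 4 of the 6 at 0 despite a mean of 27.7 FPKM. Averaged over the 6 libraries, 11 of the 31 flp genes had at least 100 FPKM, 19 had between 10 and 100 FPKM, and only flp-23, at 4.89 FPKM, lay lower. The median flp gene had 70.1 FPKM, against 11.9 FPKM for all rows of the table. The most abundant was flp-28, with 737, 603 and 593 FPKM at 25°C, against 372, 806 and 470.5 FPKM at 15°C. Its libraries overlapped between the temperatures, with a log2 fold change of 0.30 ± 0.27 (SE, n = 3 each). Next came flp-32, with means of 233 ± 69.4 FPKM at 25°C, against 231 ± 36.2 FPKM at 15°C (SD, n = 3 each). flp-5 followed with 248, 254 and 247 FPKM at 25°C, against 184, 222 and 165 FPKM at 15°C, so that every 25°C library lay above every 15°C library. flp-1, whose peptides regulate locomotion, came after it, with means of 185 ± 21.7 FPKM at 25°C, against 147 ± 24.1 FPKM at 15°C (SD, n = 3 each).

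**Figure D1:**
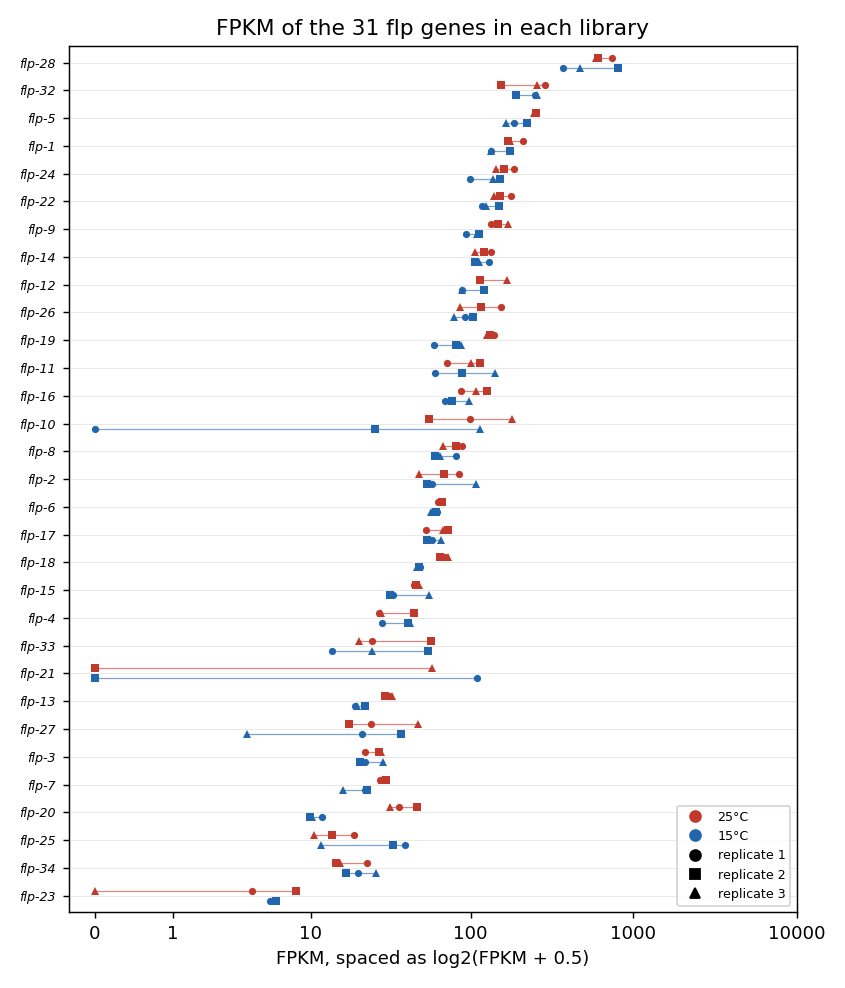
FPKM of each flp gene (rows, ordered by mean) in the 3 libraries at 25°C (red, upper) and the 3 at 15°C (blue, lower), with marker shape for the replicate and the axis spaced as log2(FPKM + 0.5). flp-20 is split by temperature, with 31.9 to 46.4 FPKM at 25°C, against 9.88 to 11.8 FPKM at 15°C, while flp-10, flp-21 and flp-23 include libraries listed at 0.

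The nlp genes covered a wider range. Of the 62 nlp genes, 14 averaged at least 100 FPKM, 38 between 10 and 100 FPKM, 8 between 1 and 10 FPKM and 2 less than 1 FPKM, with a median of 30.9 FPKM. A single gene, nlp-36, had 5681, 5339 and 5739.8 FPKM at 25°C, against 5598, 5387 and 5043 FPKM at 15°C, which is more than all flp genes summed in any library. The log2 fold change of nlp-36 was 0.07, with a 95% interval from -0.16 to 0.29, so a 2-fold change lay outside the interval. nlp-77 had 1387, 2067 and 1765 FPKM at 25°C, against 1633, 2013 and 1726 FPKM at 15°C, and the groups overlapped. nlp-41 was spread over a far wider range, with 1043, 713 and 467 FPKM at 25°C, against 551, 519.9 and 71.7 FPKM at 15°C. The log2 fold change of nlp-41 was 1.36 ± 0.76 (SE, limma adjusted p = 0.19), and it was 0.39 without the third 15°C library, the lowest of the 6. nlp-80 completed the 4 most abundant, with means of 477 ± 61.9 FPKM at 25°C, against 427 ± 53.6 FPKM at 15°C (SD, n = 3 each). nlp-36 overlaps exons of dars-1 and nlp-41 overlaps exons of mog-4 on the opposite strand. The libraries were made with a stranded kit, but the sources used here do not say that strand was used in counting, so reads of these pairs may not have been told apart.

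**Figure D2:**
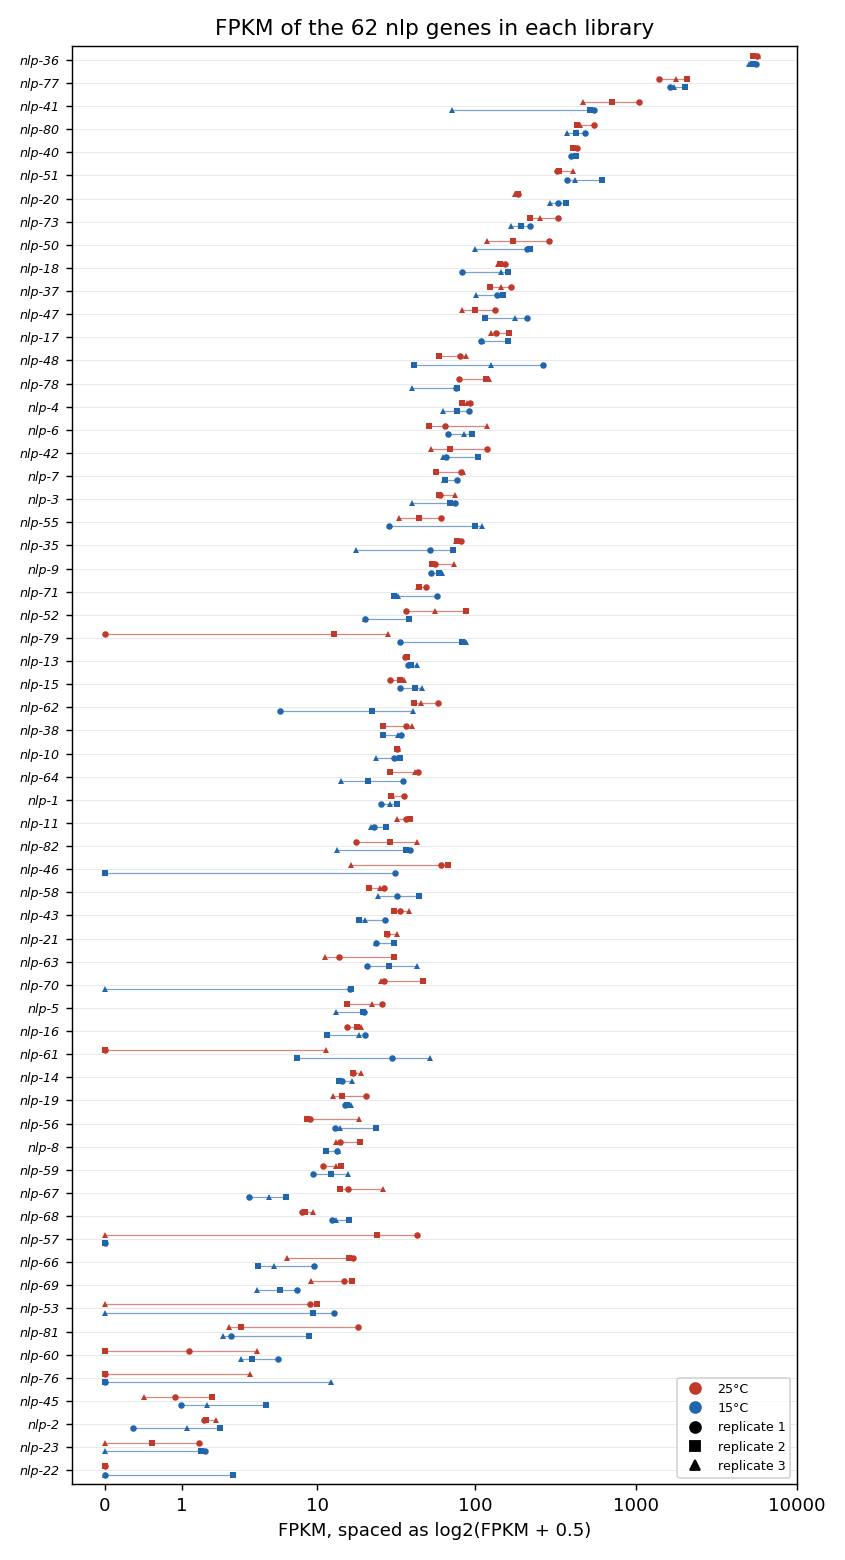
FPKM of each nlp gene (rows, ordered by mean) in the 3 libraries at 25°C (red, upper) and the 3 at 15°C (blue, lower), drawn as for the flp genes. The levels run from a mean of 5465 FPKM for nlp-36 to 0.437 FPKM for nlp-22, and nlp-20 is the abundant gene with its 25°C libraries (178 to 186 FPKM) clear of its 15°C libraries (294 to 369.9 FPKM).

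Between the temperatures, 1 of the 31 flp genes was called higher at 25°C, which was flp-20, and 1 of the 60 tested nlp genes was called higher, which was nlp-67. Among all tested genes, 6.96% were called higher, which is 904 genes. None of the flp genes and none of the nlp genes was called lower at 25°C by limma, against 5.59% of all tested genes, which is 726 genes. After rescaling to TPM the split over all genes was 1096 higher and 395 lower, and flp-20, nlp-67 and nlp-69 were the members called. At an unadjusted p under 0.05, 0 flp genes and 5 nlp genes were lower, against 26.9% of all tested genes, and 7 flp genes and 9 nlp genes were higher, against 22.9%. The remaining nlp genes, nlp-22 and nlp-23, were under the filter with means of 0.437 and 0.828 FPKM. The 8 genes of nlp-24 to nlp-34 in the table, which the rule leaves out, are all tested, and 3 were called higher and 1 lower.

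flp-20 had the smallest adjusted p of any member. FLP-20 peptides are made by touch receptor neurons and are known for roles in arousal after touch and in mating behavior of males. flp-20 is a protein-coding gene on the minus strand of chromosome X, at positions 9349276 to 9349894 of WBcel235, and its exons overlap no other annotated exon. Its level was 36.3, 46.4 and 31.9 FPKM at 25°C, against 11.8, 9.88 and 10.2 FPKM at 15°C. The lowest 25°C library was thus far above the highest 15°C library. The means were 38.2 ± 7.42 FPKM at 25°C, against 10.6 ± 1.03 FPKM at 15°C (SD, n = 3 each), a linear fold of 3.45. The log2 fold change was 1.79 ± 0.17 (SE), with a 95% interval from 1.39 to 2.18 and a limma adjusted p of 0.00051. The exact two-sided permutation test gave 0.1, the smallest p that 3 against 3 libraries allow. flp-20 was the only member called under every alternative that was run, with log2 fold changes from 1.64 to 1.97.

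nlp-67 had the other call. It lies on the plus strand of chromosome X at positions 16184369 to 16185722, with 1101 bases of annotated exons. Its level was 15.7, 14.1 and 26.4 FPKM at 25°C, against 3.45, 6.18 and 4.76 FPKM at 15°C. The groups did not overlap, and the third 25°C library stood above the other two. The means were 18.7 ± 6.71 FPKM at 25°C, against 4.8 ± 1.36 FPKM at 15°C (SD, n = 3 each), with a log2 fold change of 1.84 ± 0.29 (SE) and a limma adjusted p of 0.0035. This call was lost without the first 15°C library, where the log2 fold change of nlp-67 was 1.65 with an adjusted p of 0.015. It was also lost without the third 15°C library, with 1.85 and an adjusted p of 0.013, and without the first 25°C library, with 1.94 and an adjusted p of 0.011.

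With the fold threshold set aside, 4 flp genes were higher at 25°C at an adjusted p under 0.01 (limma), against 9.83% of all tested genes, and 1 nlp gene was higher. No flp gene and 1 nlp gene, nlp-20, were lower, against 9.76% of all tested genes. The flp genes added in this way were flp-19, flp-13 and flp-18. flp-19 had 139.8, 131 and 127 FPKM at 25°C, against 59.3, 81.7 and 87.2 FPKM at 15°C, a log2 fold change of 0.81 ± 0.16 (SE) with an adjusted p of 0.0078. It lies on chromosome X at positions 10604686 to 10605831 and overlaps exons of abl-1 on the opposite strand. flp-13, which encodes sleep-inducing peptides of the ALA neuron, had 31.1, 29.4 and 32.7 FPKM at 25°C, against 19.3, 22 and 19.6 FPKM at 15°C. All 25°C libraries of flp-13 were higher, by 0.60 ± 0.12 on the log2 scale (SE, adjusted p = 0.008), and it lies on the minus strand of chromosome IV at positions 7696932 to 7698420. flp-18, whose peptides act on locomotion and fat storage, had 69.4, 64.5 and 72.8 FPKM at 25°C, against 48.6, 47.8 and 46.8 FPKM at 15°C. Its 15°C libraries differed by less than 2 FPKM, and the log2 fold change was 0.52 ± 0.10 (SE, adjusted p = 0.0082). The differences of these genes are under 2-fold, and each missed an adjusted p of 0.01 when any 1 of the 6 libraries was left out. After rescaling to TPM or to equal sums, 7 flp genes had an adjusted p under 0.01, with flp-5, flp-7 and flp-9 added. These rescalings divide by the same library sums and differ only by a constant factor, so they are not separate checks. The share of all tested genes at that adjusted p was then 14.1% higher and 4.81% lower with TPM and 13.9% higher and 4.64% lower with equal sums. The shares over all genes also varied without a library, down to 4.46% higher without the third 25°C library and 2.55% lower without the first 15°C library. With limma's spread estimated without a trend on the mean level, flp-20 was the only flp gene left, and the adjusted p of flp-19, flp-13 and flp-18 was 0.013, 0.011 and 0.014. Without a library the adjusted p of limma ran from 0.010 to 0.029 for flp-19, from 0.012 to 0.046 for flp-13 and from 0.017 to 0.051 for flp-18.

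**Figure D3:**
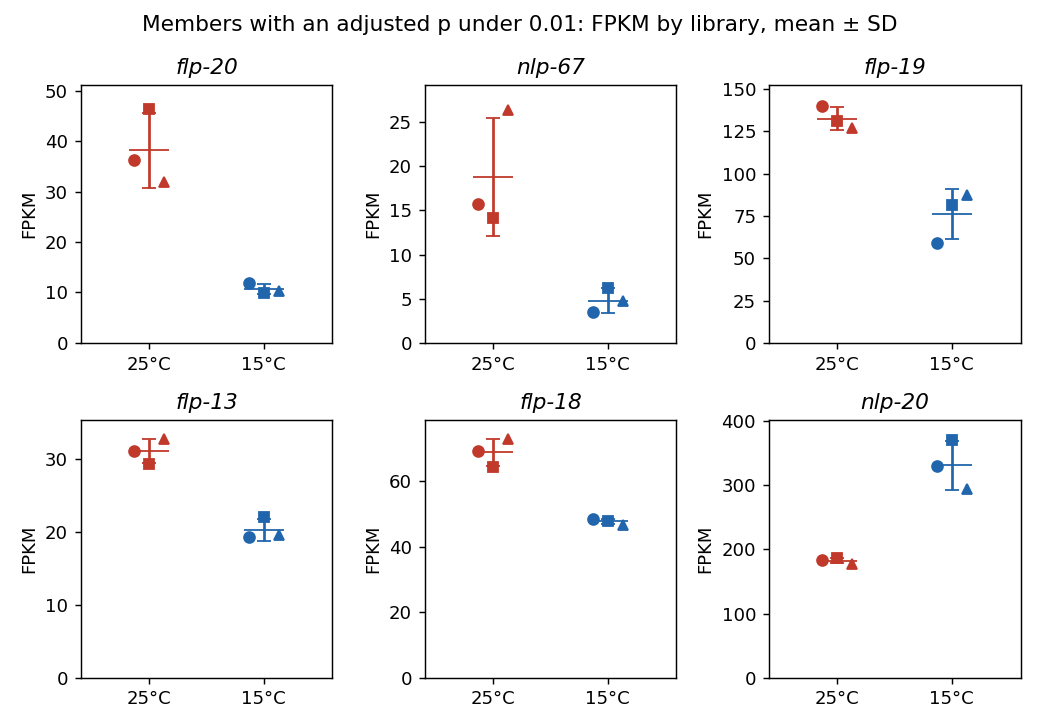
FPKM (y axis, starting at 0) of the 6 members with a limma adjusted p under 0.01, at 25°C (red, left) and 15°C (blue, right). Points are libraries with marker shape for the replicate, and bars are the mean ± SD of 3 libraries. The groups do not overlap in any of the 6 genes, and nlp-20 is the gene that is lower at 25°C.

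nlp-20 was the only member lower at 25°C at this adjusted p. It had 184, 186 and 178 FPKM at 25°C, against 329.6, 369.9 and 294 FPKM at 15°C. The 25°C libraries were close to each other and well below all 15°C libraries. The log2 fold change was -0.85 ± 0.11 (SE), with a 95% interval from -1.12 to -0.58 that includes a 2-fold difference, and an adjusted p of 0.0019 (limma). Without the third 25°C library the log2 fold change of nlp-20 was -0.83 with an adjusted p of 0.012. It lies on the minus strand of chromosome IV at positions 7642054 to 7643071. flp-19 and nlp-20 were picked for description after their values were seen. The same holds for nlp-68, nlp-69, flp-9, nlp-11, nlp-43 and nlp-52 of the next paragraph.

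Other members had limma adjusted p-values between 0.01 and 0.05, and the share of all tested genes in this range is not given here. flp-5 (adjusted p = 0.041), flp-7 (0.046) and nlp-61 (0.043), described in other paragraphs, were also in this range. nlp-68 had 7.97, 8.32 and 9.37 FPKM at 25°C, against 12.5, 15.9 and 13.1 FPKM at 15°C, a log2 fold change of -0.66 ± 0.15 (SE, adjusted p = 0.014). nlp-69 had 14.8, 16.6 and 9.12 FPKM at 25°C, against 7.32, 5.68 and 3.93 FPKM at 15°C. A log2 fold change of 1.19 ± 0.29 (SE) passed the fold threshold with an adjusted p of 0.016, and nlp-69 was called when the libraries were rescaled to TPM or to equal sums. flp-9 had 134, 148 and 169 FPKM at 25°C, against 93.4, 112 and 109.6 FPKM at 15°C, a log2 fold change of 0.51 ± 0.13 (SE, adjusted p = 0.019). For nlp-11 the log2 fold change was 0.56 (adjusted p = 0.018) and for nlp-43 it was 0.65 (adjusted p = 0.022), and neither had overlapping groups. nlp-52 differed by 1.16 on the log2 scale (adjusted p = 0.039), but its lowest 25°C library, at 36.8 FPKM, lay under its highest 15°C library, at 38.3 FPKM.

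The groups did not overlap in 8 flp genes with the 25°C libraries higher, against 25.9% of all tested genes, and in 9 nlp genes. In either direction 54.7% of all tested genes did not overlap. The groups did not overlap with the 25°C libraries lower in 0 flp genes, against 28.7% of all tested genes, and in 4 nlp genes. As a share, 25.8% of the tested flp genes and 15% of the tested nlp genes were higher in this way. The higher flp share was near that of all genes, while the lower share of both families was under it. Log2 fold changes were above 0 in 24 of the 31 flp genes and in 40 of the 60 tested nlp genes, against 48.2% of all tested genes. The median log2 fold change was 0.26 over the flp genes and 0.12 over the nlp genes, against -0.03 over all tested genes. Under rescaling to TPM the median of all genes was 0.129, and the flp and nlp medians lay 0.31 and 0.17 above it, against 0.29 and 0.16 above it without rescaling. No test was made of these medians, since the members share libraries and were not sampled at random. The summed FPKM of the 31 flp genes was 3417, 3106 and 3270.4 at 25°C, against 2402, 2983 and 2701 at 15°C. The summed FPKM of the nlp genes overlapped between the groups, with 12418, 11939.8 and 11912 at 25°C and 11899.7, 12263 and 10532 at 15°C.

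The intervals rest on the spread between these libraries, which may be technical, and they do not cover the choice of scaling. The 95% interval of the log2 fold change lay inside a 2-fold difference for 23 of the 31 flp genes and for 30 of the 60 tested nlp genes, against 57.7% of all tested genes. The tightest was nlp-40, the gene of an intestinal peptide that times defecation, described with its receptor below. The widest, that of flp-21, belonged to a member with libraries listed at 0.

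**Figure D4:**
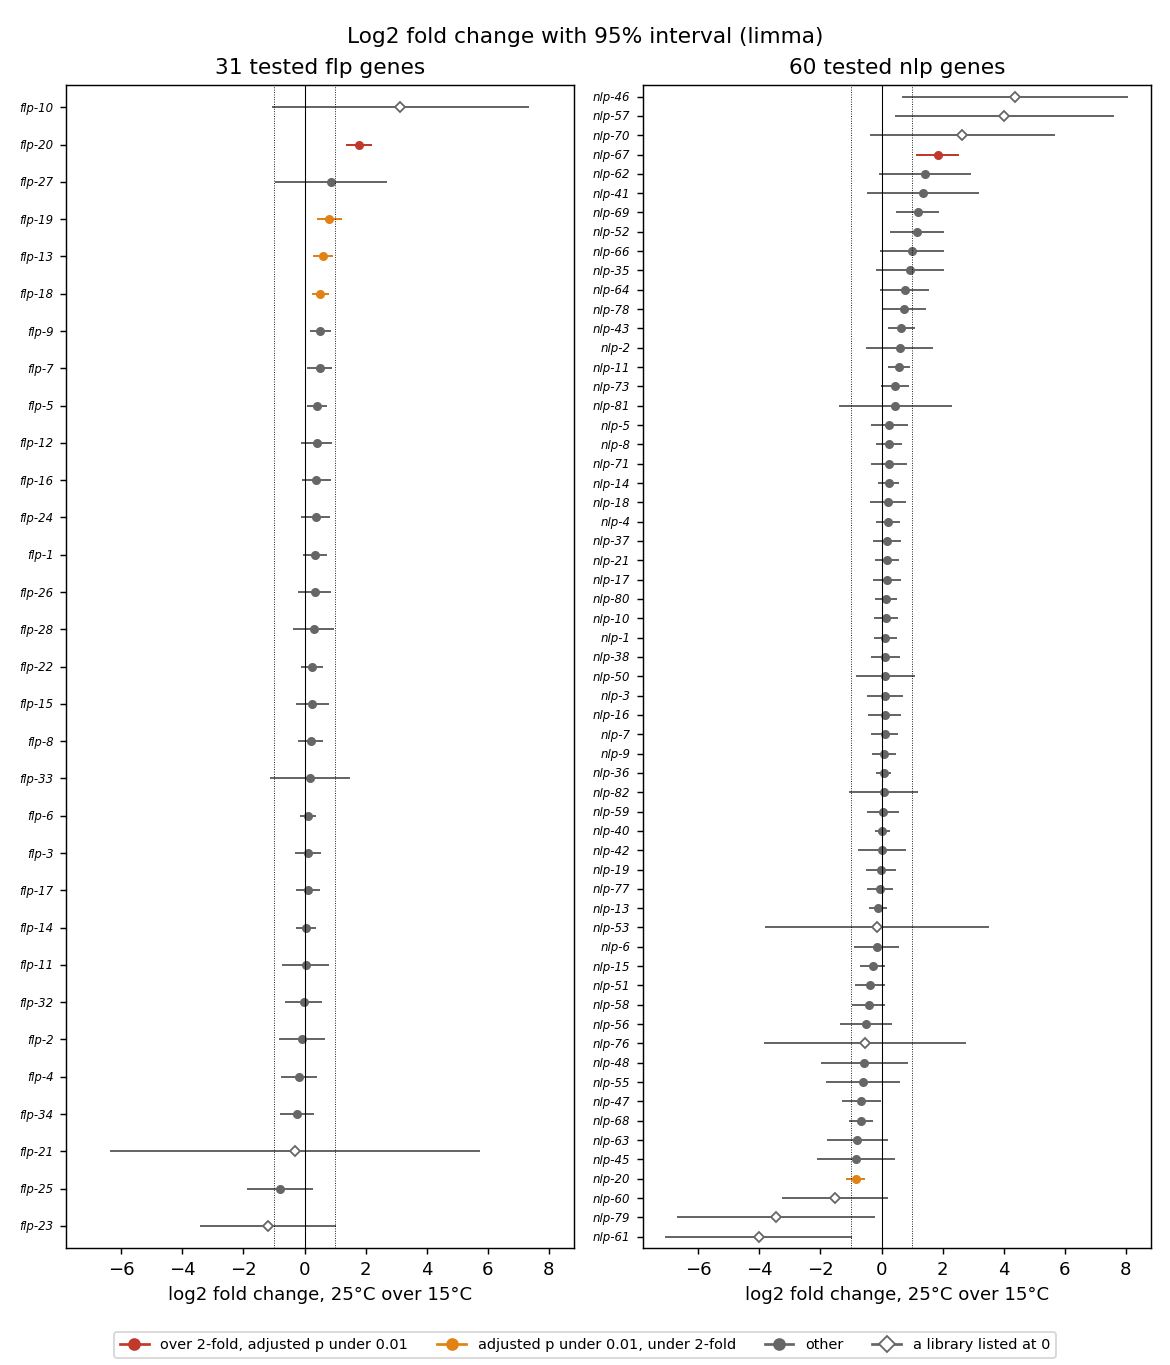
Log2 fold change of 25°C over 15°C (x axis) with the 95% interval from limma for the 31 flp genes (left) and the 60 tested nlp genes (right), ordered by size. Dotted lines mark a 2-fold difference. flp-20 and nlp-67 (red) were called, flp-19, flp-13, flp-18 and nlp-20 (orange) had an adjusted p under 0.01 with a fitted change under 2-fold, and open diamonds mark genes with a library listed at 0, many of which have wide intervals.

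None of the sleep peptide genes was called, and flp-13, described above, was the only gene among them with a limma adjusted p under 0.01. flp-11, the sleep-promoting gene of the RIS neuron, had 71.3, 115 and 100.4 FPKM at 25°C, against 60.1, 89.1 and 141 FPKM at 15°C, and the groups overlapped throughout. The log2 fold change of flp-11 was 0.04, with an interval from -0.70 to 0.78. flp-24 and nlp-8, which act with flp-13 in the ALA neuron, had log2 fold changes of 0.36 ± 0.18 and 0.25 ± 0.17 (SE). nlp-14, another gene of stress-induced sleep, had 17, 16.9 and 19.1 FPKM at 25°C, against 14.4, 13.8 and 16.8 FPKM at 15°C. Its libraries were separated by a narrow gap, with a log2 fold change of 0.23 ± 0.14 (SE, adjusted p = 0.21). nlp-22, the RIA peptide gene of larval sleep, stood at 0 in all 25°C libraries, against 0, 2.62 and 0 FPKM at 15°C, and its mean was under the filter for testing.

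Among the genes of egg laying, none was called. nlp-3 had a log2 fold change of 0.12 ± 0.24, nlp-7 of 0.10 ± 0.18 and flp-17, a ligand gene of the receptor EGL-6, of 0.11 ± 0.15 (SE, n = 3 each). flp-10, the other EGL-6 ligand gene, had 98.9, 55.2 and 181 FPKM at 25°C, against 0, 25.6 and 114 FPKM at 15°C. These groups overlapped, with a log2 fold change of flp-10 of 3.13 ± 1.78 (SE, adjusted p = 0.20) that was 0.88 without the library listed at 0. The receptor gene egl-6 itself had a log2 fold change of 0.19 ± 0.24 (SE).

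The genes of sensory signaling and arousal held flp-20, and none of the others was called. flp-6, expressed in the AFD thermosensory neurons, had 63.1, 66.4 and 65.5 FPKM at 25°C, against 62, 61.2 and 56.9 FPKM at 15°C. All 25°C libraries of flp-6 were higher, but by only 0.11 on the log2 scale, with an interval from -0.12 to 0.35 and an adjusted p of 0.40. flp-2, an arousal gene, averaged 67.3 ± 18.6 FPKM at 25°C, against 73 ± 30.4 FPKM at 15°C (SD, n = 3 each). flp-34, which acts in aversive learning, had a log2 fold change of -0.25 ± 0.23 (SE). nlp-1, released by AWC olfactory neurons, had 0.13 ± 0.14, nlp-5 had 0.26 ± 0.24 and nlp-9 had 0.07 ± 0.15 (log2 fold change ± SE). flp-21, a ligand gene of the receptor NPR-1, stood at 0, 0 and 57.4 FPKM at 25°C, against 109, 0 and 0 FPKM at 15°C. Both groups thus mixed values of 0 with values above 50 FPKM, and the 95% interval ran from -6.34 to 5.72.

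Locomotion, male turning and metabolism were represented by a few genes each. The log2 fold change of flp-1 was 0.34 ± 0.15, and those of flp-8 and flp-12, which act in male turning, were 0.20 ± 0.16 and 0.40 ± 0.20 (SE, n = 3 each). flp-7, a neuronal signal to the fat stores of the intestine, had 27.6, 29.9 and 28.2 FPKM at 25°C, against 22.1, 22.9 and 16.2 FPKM at 15°C. The groups did not overlap, with a log2 fold change of 0.49 ± 0.16 (SE, adjusted p = 0.046), and npr-22, its receptor gene, had -0.11 ± 0.27. nlp-40 had 428, 408 and 426 FPKM at 25°C, against 397, 424 and 412 FPKM at 15°C. These 6 values were nearly level, with a log2 fold change of 0.03 and an interval from -0.18 to 0.24. aex-2, the gene of the NLP-40 receptor, had 2.93, 3.37 and 4.79 FPKM at 25°C, against 2.1, 1.75 and 2.14 FPKM at 15°C, a log2 fold change of 0.73 ± 0.23 (SE, adjusted p = 0.039). nlp-12 and nlp-49 were not analysed, since no row of the expression table carried these names.

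Libraries listed at 0 limited several of the largest fitted changes. Among the members, 13 had at least 1 library at 0, and 11 of these were tested. No library was at 0 for 80 of the 91 tested members, against 12637 of the 12996 tested genes. The tested nlp genes with the largest absolute log2 fold changes were all of this kind. nlp-46 had 61.4, 67.8 and 16.5 FPKM at 25°C, against 31.4, 0 and 0 FPKM at 15°C, with an adjusted p of 0.06. Without the first 15°C library, which is its highest at that temperature, nlp-46 was called. nlp-61 had 0, 0 and 11.4 FPKM at 25°C, against 30.2, 7.38 and 52.1 FPKM at 15°C, with an adjusted p of 0.043, and was called lower without the third 25°C library. nlp-57 had 43.1, 24 and 0 FPKM at 25°C and was listed at 0 in all 15°C libraries, and it was called without the third 25°C library. nlp-79 had 0, 12.8 and 28.2 FPKM at 25°C, against 33.6, 83.2 and 87 FPKM at 15°C, with no overlap and an adjusted p of 0.083. flp-23 had 4.13, 8.11 and 0 FPKM at 25°C, against 5.45, 5.93 and 5.73 FPKM at 15°C. flp-27, with no library at 0, was still uneven, at 24.1, 17.5 and 47.1 FPKM at 25°C, against 21.3, 37.1 and 3.76 FPKM at 15°C. None of these genes was called with all 6 libraries.

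The members are mostly short genes. Annotated exons summed to a median of 643 bases for the flp genes and 595 bases for the nlp genes, against 1298 bases for the other tested genes with a length. The 27 tested members under 500 bases had a median within-group SD of 0.572 on the log2 scale, and the 58 longer ones had 0.3, against 0.218 for all tested genes. By family the median within-group SD was 0.262 for the flp genes and 0.361 for the nlp genes. Whether length set this spread was not tested.

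By position, 13 of the 31 flp genes (41.9%) and 17 of the 56 nlp genes with an annotated position (30.4%) lie on chromosome X, which holds 13.7% of the protein-coding genes of the annotation. flp-20, flp-19, flp-18 and nlp-67 are among them, whereas flp-13 and nlp-20 lie on chromosome IV. Some members are close neighbors on 1 strand of chromosome X. flp-28, flp-3 and flp-2 lie within positions 10087314 to 10095245, and their log2 fold changes were 0.30, 0.11 and -0.08. nlp-45, nlp-22, nlp-23 and nlp-2 lie within positions 2337600 to 2344766 and were among the lowest members, nlp-2 with 1.58, 1.63 and 1.97 FPKM at 25°C, against 0.247, 2.12 and 1.13 FPKM at 15°C.

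The genes that make and read neuropeptides are given by list. Over all tested genes 12.5% were called in either direction, and at an unadjusted p under 0.05 22.9% were higher and 26.9% lower. All 11 genes of precursor processing were tested and 0 were called by limma, where an unadjusted p under 0.05 gave 1 higher and 1 lower gene, and a median log2 fold change of 0.11. egl-3 had -0.10 ± 0.17, egl-21 had 0.34 ± 0.14, and sbt-1, the chaperone of EGL-3, had 0.34 ± 0.19 (log2 fold change ± SE). Of the 9 tested dense-core vesicle genes 0 were called, where an unadjusted p under 0.05 gave 4 higher genes and 1 lower gene. The lower gene was unc-31, with 1.04, 1.37 and 1.01 FPKM at 25°C, against 2.09, 2.72 and 2.83 FPKM at 15°C, a log2 fold change of -0.89 ± 0.22 (SE, adjusted p = 0.019). The 15 tested receptor genes, of 23 listed, had a median log2 fold change of 0.11 with 0 called and 3 higher at an unadjusted p under 0.05. The 4 tested degradation genes had 0 called, 2 higher at an unadjusted p under 0.05 and a median of 0.37. The 6 tested precursor genes of other families had 0 called and 1 lower at an unadjusted p under 0.05. Among these, pdf-1, of the pigment-dispersing factor family, had -0.10 ± 0.26 and ntc-1, the nematocin gene, had -0.45 ± 0.38 (log2 fold change ± SE).

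Genes used throughout the nervous system were measured beside the members. The summed FPKM of the pan-neuronal list was 556, 553 and 574 at 25°C and 507, 557 and 501 at 15°C, and no listed gene in the table was at 0. Of its 13 tested genes 1 was called, ehs-1, an endocytic adaptor gene, which was lower with 7.94, 10.9 and 10.1 FPKM at 25°C, against 19.6, 16 and 24.6 FPKM at 15°C. The log2 fold change of ehs-1 was -1.01 ± 0.20 (SE, adjusted p = 0.008), at the fold threshold, and the call was lost without each of the 6 libraries in turn, at log2 fold changes from -1.15 to -0.86. In the other direction unc-64, the syntaxin gene, had 69.9, 62.5 and 67.6 FPKM at 25°C, against 38, 41.2 and 35.3 FPKM at 15°C, a log2 fold change of 0.80 ± 0.11 (SE, adjusted p = 0.0025). At an adjusted p under 0.01 and any fold, the list thus had 1 gene higher and 1 lower, and its median log2 fold change was 0.07. Of the 7 tested transmitter genes 1 was called, tdc-1, the tyrosine decarboxylase of tyramine and octopamine synthesis. tdc-1 had 20.5, 32.7 and 27.3 FPKM at 25°C, against 75.7, 62.7 and 86.7 FPKM at 15°C, a log2 fold change of -1.48 ± 0.20 (SE, adjusted p = 0.002). Without the first 15°C library tdc-1 had -1.47 with an adjusted p of 0.012, and it was picked for description after its values were seen, as were the genes that follow. tbh-1, which makes octopamine from tyramine, had a log2 fold change of -0.96 ± 0.17 (SE, adjusted p = 0.0049), whereas unc-46 and unc-47, of GABA transport into vesicles, had 0.96 ± 0.23 (SE, adjusted p = 0.017) and 0.64 ± 0.27 (SE, adjusted p = 0.096), with no overlap between the groups.

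**Figure D5:**
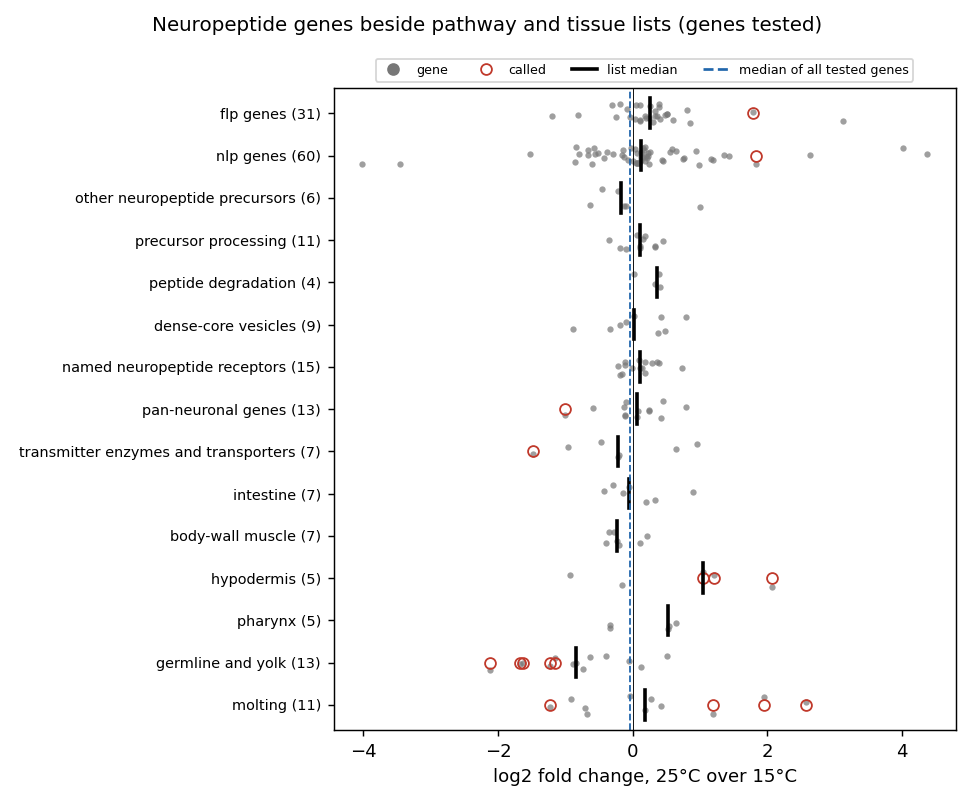
Log2 fold change of 25°C over 15°C (x axis) of each tested gene (grey points) in the flp and nlp families and in lists of neuropeptide pathway, neuronal, tissue and molting genes, with called genes ringed in red, list medians as black bars and the median of all tested genes as a dashed line. The flp and nlp medians are 0.26 and 0.12, while 5 of 13 germline and yolk genes were called lower and 3 of 5 hypodermis genes higher.

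Some lists of other tissues and of the molt held called genes and others did not, to be read against the 6.96% of all tested genes called higher and the 5.59% called lower. None of the 7 tested intestine genes, 7 body-wall muscle genes and 5 pharynx genes was called by limma, with 2 higher and 1 lower, 0 higher and 2 lower, and 2 higher and 1 lower in that order where the unadjusted p was under 0.05. The germline and yolk list had 5 of 13 genes called lower and summed to 2041, 2502 and 2103 FPKM at 25°C, against 3460, 3371 and 5186 FPKM at 15°C. Most of this sum came from yolk genes. Means at 25°C were 659.6 FPKM for vit-2, 198 for vit-5 and 637 for vit-6, against 1049, 626 and 1179 FPKM at 15°C. Among the spe genes of the list, spe-11 had a log2 fold change of 0.52 ± 0.17 (SE). spe-9 had 0.12 ± 0.19 and spe-41 had -0.05 ± 0.12 (SE), and none of the spe genes was called. Without the first 15°C library 1 germline and yolk gene was called, and after rescaling to TPM 3 were. The hypodermis list had 3 of 5 tested genes called higher and summed to 282, 353 and 310.2 FPKM at 25°C, against 103, 123 and 97.65 FPKM at 15°C. Most of that sum was dpy-13, a cuticle collagen gene, with means of 241 FPKM at 25°C against 57.3 FPKM at 15°C, while dpy-7 had a log2 fold change of -0.93 ± 0.37 and elt-3 of -0.15 ± 0.23 (SE), and neither was called. Of the 11 tested molting genes, mlt-7, mlt-8 and nas-36 were called higher and noah-2 lower, and the list median was 0.19. The groups did not overlap in 4 molting genes with higher and 4 with lower 25°C libraries, the lower ones being noah-2, nas-37 (log2 fold change -0.92), nhr-23 (-0.70) and noah-1 (-0.68). The list summed to between 179.5 and 208 FPKM at 25°C, against 101 to 124 FPKM at 15°C, largely through the 3 genes called higher. The log2 fold change was 1.96 ± 0.24 for mlt-7, a peroxidase gene of the cuticle, 1.19 ± 0.11 for mlt-8 and 2.58 ± 0.22 for nas-36, an astacin protease gene (SE, limma), and noah-2, at -1.23 ± 0.25, lost its call without each of the 6 libraries. The part of these tissue and stage differences in the values of flp-20, nlp-67 and the other members was not tested.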

How the data were processed

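RNA of whole N2 worms at the L4 stage was sequenced in 3 libraries at 25°C and 3 at 15°C, grouped by the culture temperature in the sample records. Per the submitters' processing notes the authors aligned reads to WBcel235 with TopHat2 2.0.6 and used Cufflinks, with no version stated there. The authors deposited 1 FPKM value per gene and library, relative to transcript length and mapped fragments, in 1 table without comparison columns. Depth is unknown, since low values follow no steps of 1 read (the smallest above 0 is 9.8e-258), so the precision rests on the spread of 3 libraries. FPKM summed to between 2663992 and 2776526 at 25°C and between 2865856 and 3313082 at 15°C.

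The members and lists were chosen with earlier results of these data known. Differences were fitted on log2(FPKM + 0.5) for the rows with a mean of at least 1 FPKM in limma 3.58.1 (R 4.3.3), with a mean-variance trend, no covariate and Benjamini-Hochberg adjustment. All tests were two-sided. The study's own thresholds, a 2-fold change and an adjusted p under 0.01, were kept, but its test needs reads and was replaced. Tables were made with Python 3.11.15, pandas 2.3.3 and numpy 2.4.6, permutation tests enumerated all splits, and figures used matplotlib 3.10.9. On data simulated with normal noise for 12996 genes, 121 of 200 spiked changes of 1.5 (log2) and 161 of 200 of size 2 were recovered. The spiked genes were drawn from all rows with a mean of at least 5 FPKM. Recovery among the flp and nlp genes, some of which have libraries at 0, was not measured.

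Symbols of 87 of the 93 members were found in the Ensembl 115 annotation of WBcel235, the source of positions, exonic lengths and overlaps. nlp-10, nlp-37, nlp-38, nlp-42, nlp-73 and nlp-77 were not. Genes were named if called, if among the 4 of each family with the largest absolute log2 fold change or highest mean FPKM, if in a role list, or, for pathway and molting lists, if called, with the pan-neuronal gene of largest change. Others were named after their values were seen. The fit was repeated with pseudocounts of 0.1 or 1, with a filter of 5 FPKM or none, with median-ratio scaling, TPM or equal sums, at an adjusted p under 0.05, without the trend, with a replicate block, with each library left out in turn and, chosen after the data were seen, without genes listed at 0 in any library.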

Additional observations from a re-analysis of the deposited data

How the results depend on the processing

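flp-20 kept its call under every alternative run. The median log2 fold change of the tested flp genes was 0.44 after rescaling to TPM and 0.44 with equal sums, and 0.19 to 0.36 with each library left out in turn. TPM and equal sums use the same library sums, so their likeness was fixed in advance. The median log2 fold change of the tested nlp genes was 0.30 with TPM and 0.31 with equal sums. The number of nlp genes higher at 25°C was 2 with TPM, 2 with equal sums, 3 at an adjusted p under 0.05, 2 without genes listed at 0 in any library, and 0 to 2 with each library left out. The number of nlp genes lower at 25°C was 1 at an adjusted p under 0.05 and 0 to 1 with each library left out. The number of all tested genes lower at 25°C was 395 with TPM and 422 with equal sums, against 726, with 1096 and 1212 higher against 904, and 287 to 824 with each library left out. The number of all tested genes higher at 25°C was 569 to 794 with each library left out. At an adjusted p under 0.05, more than 904 of all tested genes were called higher and more than 726 lower. The same held without genes listed at 0 in any library. Under both of these settings, the share of tested nlp genes called was under that of all tested genes in each direction. Of 756 values recomputed for 45 named genes, 24 crossed 0, all of them of 10 uncalled members. With each library left out in turn, the log2 fold change ran from -2.03 to 0.03 for flp-23, -0.05 to 1.52 for flp-27, -0.16 to 0.28 for nlp-3, -0.00089 to 0.28 for nlp-7, -0.07 to 0.16 for nlp-9, -0.20 to 0.24 for flp-32, -0.19 to 0.10 for nlp-77, -0.27 to 0.24 for flp-2, -0.26 to 0.35 for flp-11 and -2.59 to 2.29 for flp-21. With TPM, and also with equal sums, it was 0.16 for flp-32, 0.13 for nlp-77 and 0.10 for flp-2. Causes were not tested.

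The values gave no sign of pairing by replicate number. The deviations of libraries with the same number correlated at -0.035, -0.104 and -0.05, and no library correlated best with the one of its own number. Such weak correlations cannot exclude that libraries of the same number were handled together. With the replicate block, 597 of all tested genes were called higher and 406 lower, flp-20 was called and was the only flp gene with an adjusted p under 0.01 (0.024 for the log2 fold change of flp-19, 0.030 for flp-13 and 0.028 for flp-18), tdc-1 was not called (adjusted p = 0.01), nlp-67 was not (adjusted p = 0.011, log2 fold change of nlp-67 1.84) and nlp-52 was (log2 fold change 1.16, adjusted p = 0.0091). Unknown depth leaves values listed at 0 without a bound.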
